A study of Homo sapiens with 4 samples.

Results

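Romidepsin was studied alone, without tamoxifen, on 2 of the 4 arrays of this series. The cells were Panc1, an established human pancreatic cancer line, and each condition was measured on 1 Affymetrix expression array. The compared groups were Panc1 cells given romidepsin for 24 hours and untreated Panc1 cells, for which the labels name no vehicle. A second pair of arrays, which shares no array with the first, held Panc1 cells given romidepsin plus tamoxifen for 24 hours and Panc1 cells given tamoxifen alone for 24 hours; tamoxifen, a selective estrogen receptor modulator, was thus present in both arrays of that pair. All 4 cultures were grown in the same serum-containing medium. The labels state no dose. Every probe set annotated to a single gene was included, which gave 41091 of 54613 non-control probe sets and 19775 genes. A floor was placed at 66.4, the median signal of the non-control probe sets over the 4 arrays, and lower signals were raised to it. A gene was counted as measured where at least 1 of the 2 arrays exceeded the floor, which held for 13619 genes, and it was called higher or lower where its floored signals differed by at least 2-fold. With 1 array per group the pair itself allows no test and no estimate of the variation between cultures, so every fold describes these arrays only. In RNA from a whole culture, fewer cells of a type and less RNA per cell cannot be told apart.

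Romidepsin is a cyclic peptide that blocks the zinc-dependent class I histone deacetylases. These enzymes sit in corepressor complexes and remove acetyl groups from histone tails, and acetylated histones mark open, transcribed chromatin. Blocking them is known to raise the cell cycle inhibitor gene CDKN1A and to stop tumour cells from dividing, and it changes the transcription of many genes in both directions.

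The 2 arrays were alike in their technical controls. Signals of the 18 hybridization spike-in probe sets averaged 1.01-fold, romidepsin over untreated, with an SD of 0.098 on the log2 scale. The actin control's 3′ to 5′ signal ratio, which grows as RNA degrades, was 1.18 on the romidepsin array and 1.21 on the untreated array, against 1.73 on the combination array and 1.39 on the tamoxifen array. Over 5524 genes with several probe sets above the floor on both arrays, the log2 folds of a pair of probe sets for the same gene differed by a median of 0.27. The untreated cells carried the transcripts of a Panc1-like line with both epithelial and mesenchymal features: 6 of 8 epithelial and duct markers and 4 of 5 mesenchymal markers exceeded the floor. The keratin gene KRT19 and the epithelial adhesion gene EPCAM were at the floor in untreated cells. Of the markers of other pancreatic cells, 1 of 4 acinar, 0 of 4 endocrine and 2 of 6 stellate markers exceeded the floor on either array. Endothelial markers exceeded it for 3 of 5 genes in romidepsin cells and 1 of 5 in untreated cells, and leukocyte markers for 1 of 4 and 0 of 4, with summed signals that stayed low, 593 against 179 and 241 against 134. Their part in the results was not tested.

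Romidepsin cells differed from untreated cells by 2-fold or more in many transcripts. Of the 13619 measured genes, 1953 were higher (14.3%) and 1263 were lower (9.27%) in romidepsin cells than in untreated cells, 23.6% in all. Large rises outnumbered large falls: 494 genes were at least 4-fold higher and 188 at least 4-fold lower, and at 16-fold the counts were 39 and 4. Genes that rose were dim in untreated cells. Among genes above the floor on both arrays, the median signal of those that rose was 919 in romidepsin cells and 271 in untreated cells, whereas that of those that fell was 505 in romidepsin cells and 1482 in untreated cells. For 547 of the genes that rose, 28.0%, the untreated signal was at the floor, so their folds are lower bounds, and the same held in romidepsin cells for 67 of the genes that fell, 5.30%. Restricted to the 11528 genes above the floor on both arrays, 1406 rose (12.2%) and 1196 fell (10.4%). The balance of rises and falls depended on how the arrays were set to a common scale: rises made up 60.7% of the calls on the deposited scale, 47.4% when the arrays were centred on their medians and 49.0% when the floor was raised to the 75th percentile of signals. Centring moved the median log2 fold of all measured genes to -0.11, against 0.06 on the deposited scale. At the edge of the floor, LSMEM1 and ARSL lay just above and just below it in romidepsin cells, and ZNF577 and ERICH4 in untreated cells, all 4 at a rounded 66.4.

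**Figure D1:**
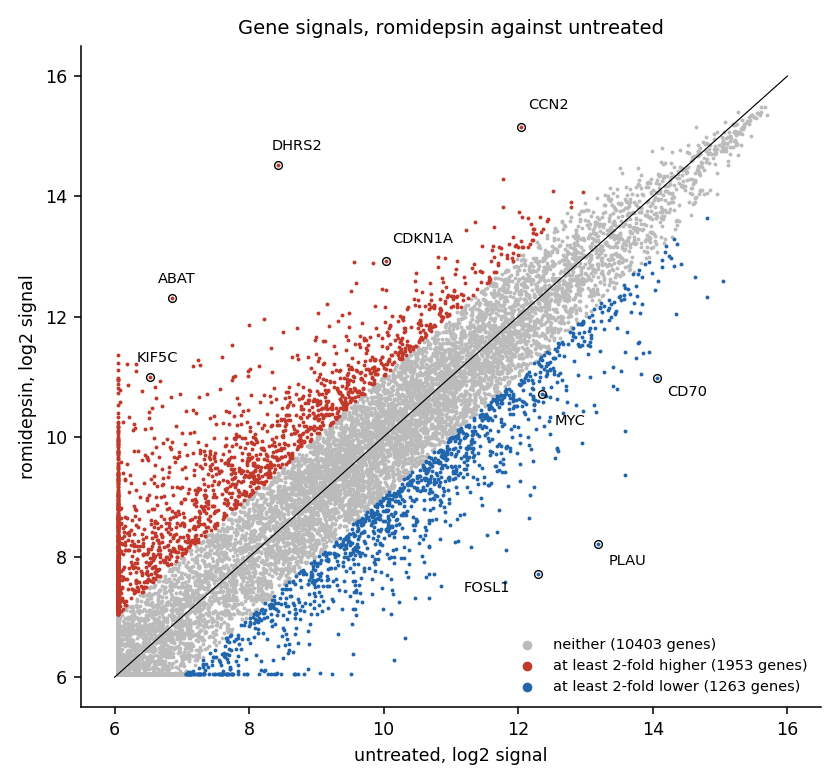
Log2 signal of each of the 13619 measured genes in romidepsin cells (vertical axis) against untreated cells (horizontal axis), after the floor of 66.4. Red points are the 1953 genes at least 2-fold higher, blue points the 1263 at least 2-fold lower, and the line marks equal signals. The column of points at the left edge holds genes whose untreated signal was at the floor.

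The split by signal level was also seen when genes were ordered on the tamoxifen array. That array entered the comparison only through the floor and the choice of probe sets, both set over the 4 arrays. Genes at or under the floor there were left out. Of the 2444 measured genes with signals from the floor to 200, 21.9% rose and 3.72% fell in romidepsin cells. Of the 4239 genes between 200 and 1000, 15.3% rose and 11.02% fell. Of the 4048 genes between 1000 and 5000, 7.34% rose and 13.1% fell. Of the 1317 genes above 5000, 1.75% rose and 12.5% fell. Among called genes, dim ones thus mostly rose and bright ones mostly fell, and a dim gene has little room to fall before it meets the floor. Gene length showed a smaller gradient: 13.1% of the 3140 genes up to 10 kb rose, against 18.1% of the 1934 genes between 100 and 300 kb, while the share that fell stayed between 8.92% and 9.63% in all length classes. Long noncoding RNA genes rose about as often as protein-coding genes, 13.1% of 823 against 14.5% of 12534, and 4.98% of them fell, against 9.69%.

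The second pair of arrays, romidepsin plus tamoxifen over tamoxifen, gave the same direction for 3154 of the 3216 called genes (98.1%), and 2497 of them (77.6%) again differed by at least 2-fold the same way. For comparison, 14.8% of all measured genes rose and 11.8% fell in the second pair, and among the 9896 genes not called in the first pair and measured in both, 5.50% rose and 6.34% fell. Repetition grew with the size of the fold. Of the 1062 rises of 2 to 3-fold, 62.2% were repeated, and of the 858 falls of that size 72.7% were. Of the rises of 5 to 10-fold, 235 of 239 were repeated and of the falls 84 of 85. All 98 rises and all 12 falls of 10-fold or more were seen again. Only 4 genes were called in opposite directions. An additive limma fit over the 4 arrays, with romidepsin and tamoxifen as terms and 1 residual degree of freedom, was added after these values were seen. It averages both pairs, takes any difference between them as error, and reads signals raised to the floor as having no spread. Of 14414 genes it called 3392 higher and 2669 lower with romidepsin at a Benjamini-Hochberg adjusted p under 0.05. Of the 3216 genes called by fold, 3060 passed in the same direction. The fit uses the same 2 arrays that made those calls, so this overlap is partly built in and is no independent check. For the genes described below, values are given for romidepsin and untreated cells, and the fold in the second pair is called the fold in the presence of tamoxifen. A list's count is to be read against the 14.3% higher and 9.27% lower of all measured genes, or, for members above the floor on both arrays, against 12.2% and 10.4%. Where another floor, scaling or choice of probe sets moved a count by over 1.5 times, its range is given as the numbers across settings.

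**Figure D2:**
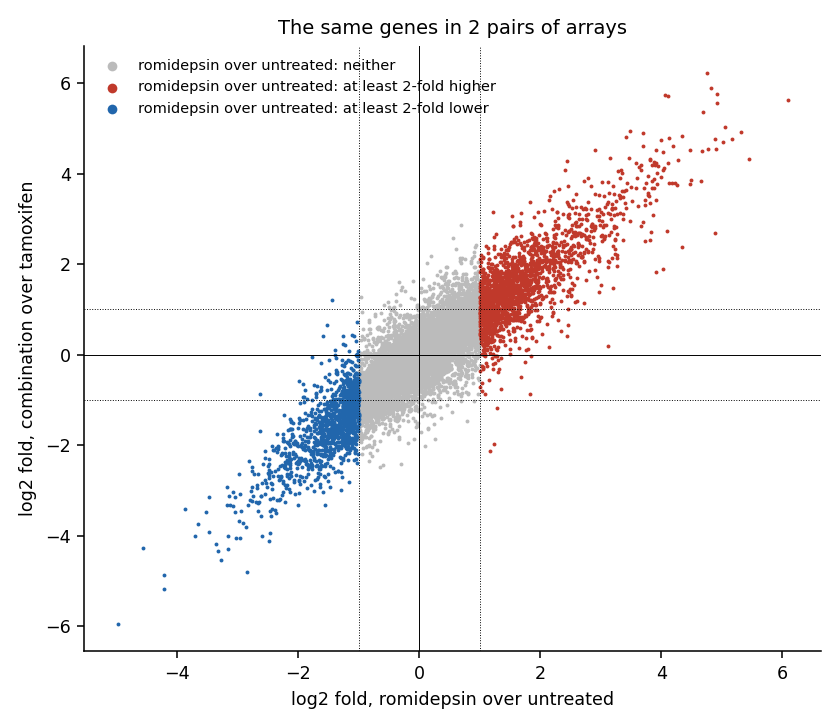
Log2 fold of each gene measured in both pairs, romidepsin over untreated (horizontal axis) and romidepsin plus tamoxifen over tamoxifen (vertical axis). Dotted lines mark 2-fold, and colours give the call in the first pair; 3154 of the 3216 called genes lie on the same side of 0 in both.

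Of the drug's own targets, 3 of the 4 class I deacetylase genes differed by less than 2-fold. HDAC1 had a signal of 14306 in romidepsin cells and 12525 in untreated cells, HDAC2 had 10051 against 8965, and HDAC8 had 471 against 525. HDAC3, the catalytic subunit of the nuclear receptor corepressor complex, was the exception, with 3645 in romidepsin cells and 1685 in untreated cells, 2.16-fold higher, a call that ended when the arrays were centred on their medians. Of the 7 class II and class IV enzymes, HDAC5 and HDAC11 rose (3.01-fold and 2.1-fold), rises that fell short of 2-fold in the presence of tamoxifen, and HDAC7 fell 3.65-fold. None of these 3 was called with the median over a gene's probe sets or with the floor at the 75th percentile. Among the sirtuins, which use NAD and are not inhibited by romidepsin, SIRT2 rose 4.04-fold, to 7267 against 1800.5. Some writers and readers of acetylation fell. Of 13 acetyltransferases 0 rose and 4 fell (30.8%), namely KAT2A, KAT5, KAT6B and KAT8, by 2.01 to 2.72-fold, and EP300 had 842 in romidepsin cells and 889 in untreated cells; across settings 2 to 4 fell. Of 22 bromodomain genes, 4 fell (18.2%) and 1, the remodelling ATPase SMARCA2, rose 2.8-fold. Across settings 1 to 7 fell. The largest fall was that of ZMYND8, 3.74-fold, but the median over its probe sets gave a log2 fold of -0.07. Of 29 subunits of deacetylase complexes 5 fell and 0 rose, among them MTA1, MTA2 and MTA3 of the NuRD complex, 2.27 to 2.83-fold; across settings 2 to 5 fell.

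Some genes for DNA and histone methylation fell. UHRF1, which brings the maintenance methyltransferase to newly replicated DNA, had a signal of 1379 in romidepsin cells and 8008 in untreated cells, and in the second pair 667 in combination cells and 4794 in tamoxifen cells. Both romidepsin arrays were thus lower than both others. The fall was 5.81-fold, and DNMT1, its methyltransferase partner, fell 2.37-fold (1637 against 3887). Of 11 genes for DNA methylation and demethylation 3 fell and 0 rose. Of 48 histone methylation and demethylation enzymes 7 fell (14.6%) and 4 rose (8.33%). Among all genes above the floor on both arrays, as these 48 were, 10.4% fell and 12.2% rose. In the presence of tamoxifen 6 of the falls and 2 of the rises were repeated. Across settings 3 to 9 of these enzymes fell and 2 to 5 rose. The histone H3 lysine methyltransferase genes SUV39H1 and NSD2 fell 4.15-fold and 4.03-fold (the NSD2 call ended with the median over its probe sets), whereas EZH2 of the Polycomb complex had 855 in romidepsin cells and 1074 in untreated cells.

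Signals of the clustered core histone genes mostly rose. Of 18 measured members 12 rose and 1, H4C11, fell, and the median log2 fold was 1.12, against 0.06 over all measured genes; 9 of the 12 rises were repeated in the presence of tamoxifen, and the fall was not; of the 13 above the floor on both arrays 10 rose and 1 fell; across settings 5 to 12 rose and 0 to 2 fell. H2BC21, an H2B gene on chromosome 1 whose transcript can be polyadenylated, had 1085 in romidepsin cells and 145 in untreated cells, with 1151 in combination cells and 313 in tamoxifen cells. H2BC5 had 2704 against 626, and H2AC6 had 969 against 261, 7.5, 4.32 and 3.72-fold higher in the order named. Histone genes resemble each other closely, and the probe sets of these 3 genes are of types that can match related transcripts. The rise thus belongs to the group more safely than to any 1 member. Whether it lies in all transcripts of these genes or only in polyadenylated ones was not tested. The linker histone genes H1-2 and H1-10 rose 3.04-fold and 2.46-fold. Replacement histones tied to dividing cells went down: CENPA, the centromeric H3, had 498 in romidepsin cells and 1727 in untreated cells, a fall of 3.47-fold, and H2AX fell 2.23-fold.

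Many cell cycle genes fell, while 3 of 5 measured inhibitor genes of the cyclin-dependent kinases rose and 1 fell. Across settings 1 to 3 of these inhibitor genes rose. CDKN1A, which encodes an inhibitor of the G1 kinases, had a signal of 7755 in romidepsin cells and 1047 in untreated cells, and 7644 in combination cells and 1138 in tamoxifen cells, with both romidepsin arrays high and both others low. It rose 7.41-fold. CDKN1C of the same family rose 5.07-fold and the INK4 gene CDKN2D 3.57-fold (a log2 fold of 0.92 with the median over its probe sets). CDKN1B fell 2.33-fold and CDKN2A was at the floor on both arrays. Among the cyclins, the D-type cyclin gene CCND2 was just above the floor in untreated cells, with 1867 in romidepsin cells and 73.8 in untreated cells (25.3-fold), and CCND3 rose 2.65-fold, whereas CCND1 had 3179 against 6299. The mitotic cyclin genes CCNA2, CCNB1 and CCNB2 fell 3.67, 3.02 and 2.85-fold. FOXM1, a transcription factor of mitotic genes, fell to 421 in romidepsin cells, against 2353 in untreated cells, a 5.58-fold difference.

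Falls extended through the E2F, replication and spindle lists. Of 19 RB and E2F family genes 10 were lower and 0 higher, and their median log2 fold was -1.03; E2F1 fell 2.67-fold, E2F8 4.28-fold and MYBL2, a transcription factor of late cell cycle genes, 3.21-fold, and RB1 had 781 in romidepsin cells and 485 in untreated cells; across settings 5 to 11 fell and the median lay between -1.22 and -0.47. Of 54 replication genes 19 fell and 2 rose, and 18 of the falls were repeated in the presence of tamoxifen; across settings 1 to 2 rose and 12 to 25 fell. TYMS, the thymidylate synthase gene, fell 5.47-fold (6164 against 33696), and the replicative helicase subunits MCM5 and MCM7 fell 4.44-fold and 3.69-fold. PCNA, the sliding clamp, was lower by less than 2-fold, 6892 in romidepsin cells and 10433 in untreated cells. Of 38 kinetochore and checkpoint genes 17 fell and 0 rose, median -0.85, among them NDC80 and NUF2 of the microtubule-binding complex (3.93 and 4.07-fold) and the checkpoint kinase gene BUB1B (3.17-fold); across settings 11 to 20 fell. Directions differed among the kinesins. The mitotic motors KIF2C, KIF4A, KIF20A and KIF23 fell 3.18 to 3.83-fold, and KIF5C, a cargo motor of nerve cells, rose 22.2-fold (2037 against 91.9), although its 1 probe set of the most specific type, near the floor, gave a log2 fold of 0.13.

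Promoter windows of 300 bases, from 250 before to 50 after the RefSeq start (GRCh38.p14), were read for 4 genes of these groups: the inhibitor CDKN1A that rose, the helicase and mitotic genes MCM7 and CCNB2 that fell, and the histone gene H2BC21 that rose. They lie at chr6:36678464-36678763 (plus strand), chr7:100101348-100101647 (minus), chr15:59104896-59105195 (plus) and chr1:149886633-149886932 (minus). Capitals mark the GC box GGGCGG in CDKN1A, the E2F motifs TTTCCCGC, TTTGGCGC and TTTCGCGC in MCM7, CCAAT and the cell cycle homology region (CHR) motifs TTTGAA and TTCGAA in CCNB2, and CCAAT and TATAAA in H2BC21, on either strand.
CDKN1A: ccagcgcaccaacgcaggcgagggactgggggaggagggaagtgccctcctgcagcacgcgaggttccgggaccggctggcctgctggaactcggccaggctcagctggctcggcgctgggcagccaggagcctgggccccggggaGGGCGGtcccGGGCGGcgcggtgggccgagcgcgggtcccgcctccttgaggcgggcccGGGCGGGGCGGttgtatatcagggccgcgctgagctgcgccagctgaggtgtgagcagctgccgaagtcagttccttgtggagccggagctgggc
MCM7: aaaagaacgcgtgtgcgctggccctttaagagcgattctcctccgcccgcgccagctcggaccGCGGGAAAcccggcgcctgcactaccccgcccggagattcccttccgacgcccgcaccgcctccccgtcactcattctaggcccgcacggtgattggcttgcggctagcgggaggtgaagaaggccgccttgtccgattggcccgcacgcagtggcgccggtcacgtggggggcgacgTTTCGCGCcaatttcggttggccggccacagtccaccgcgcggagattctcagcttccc
CCNB2: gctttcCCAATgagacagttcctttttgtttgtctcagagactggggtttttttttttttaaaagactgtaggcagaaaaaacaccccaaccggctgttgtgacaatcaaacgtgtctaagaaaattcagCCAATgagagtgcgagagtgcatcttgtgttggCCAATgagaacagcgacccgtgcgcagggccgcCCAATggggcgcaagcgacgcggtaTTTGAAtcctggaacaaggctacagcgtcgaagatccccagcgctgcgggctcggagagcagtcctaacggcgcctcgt
H2BC21: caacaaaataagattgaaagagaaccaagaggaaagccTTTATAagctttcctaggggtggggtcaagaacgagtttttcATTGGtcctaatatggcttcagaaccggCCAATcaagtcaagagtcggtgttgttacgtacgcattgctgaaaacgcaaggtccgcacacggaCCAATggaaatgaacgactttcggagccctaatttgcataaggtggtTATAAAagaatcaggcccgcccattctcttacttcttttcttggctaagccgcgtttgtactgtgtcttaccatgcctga
CDKN1A holds 4 GC boxes, within the 104 bases before its start. CCNB2 holds 4 CCAAT matches and a CHR match that begins 29 bases before the start. Over the lists, a CHR match was present in 51.6% of the 31 kinetochore gene windows, an E2F match in 39.6% of the 48 replication gene windows, and CCAAT and TATAAA in 77.8% and 66.7% of the 18 core histone windows. Of all 27305 promoters in the table, 16.6% held a CHR match, 2.79% an E2F match, 35.7% CCAAT, 11.95% TATAAA and 44.6% a GC box, and among the 11017 windows of measured genes the shares were 11.2%, 4.37%, 36.4%, 6.10% and 68.6% in the same order. These matches describe the sequences and say nothing of binding in these cells.

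The largest rises included several metabolic enzymes, protease inhibitors and transporters. DHRS2, a mitochondrial short-chain dehydrogenase/reductase, had 23549 in romidepsin cells and 346 in untreated cells, 68-fold higher, and 25122 in combination cells against 504 in tamoxifen cells. This was the largest fold of any gene above the floor on both arrays, and it took a dim transcript to among the brightest. ABAT, which breaks down the transmitter GABA, had 5066 against 115 (43.9-fold), and GATM, which makes the creatine precursor, had 2359.7 against 73 (32.3-fold). Arginase ARG2 rose 17.4-fold, the glutamate transporter gene SLC17A7 19.2-fold, and the mannosidase gene MAN1A1 18.7-fold. BAMBI, a decoy receptor for TGF-beta family ligands, rose 20.4-fold and PRKAR2B, which restrains the cAMP-dependent protein kinase, 25.9-fold. The protease inhibitors SERPINB9, which blocks granzyme B, and SERPINI1, a serpin of nerve cells, rose 15-fold and 16.3-fold. Genes at the floor in untreated cells that reached a clear signal included the nutrient-stress gene SESN3 (2016, at least 30.4-fold; a log2 fold of 0.90 with the median over its probe sets), the desmosome gene DSP (1964, at least 29.6-fold), the glucose transporter gene SLC2A3 (1883, at least 28.4-fold) and ENPP5 (2002, at least 30.2-fold). The DHRS2 window, chr14:23629865-23630164 (plus strand), is shown for the gene with the largest rise and holds no GC box; its capitals mark TATAAA, which begins 29 bases before the start.
DHRS2: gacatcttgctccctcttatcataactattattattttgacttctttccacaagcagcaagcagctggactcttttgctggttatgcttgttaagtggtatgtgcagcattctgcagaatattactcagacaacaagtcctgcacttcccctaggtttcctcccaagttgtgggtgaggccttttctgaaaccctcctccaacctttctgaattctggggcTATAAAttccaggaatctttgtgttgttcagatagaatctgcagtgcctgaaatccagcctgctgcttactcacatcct
It also contains no CG dinucleotide, so its observed over expected CpG ratio is 0, whereas that of the CDKN1A window is 0.72 and the median over measured genes with a window is 0.83.

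The largest falls included a protease, transcription factors, growth factor genes and cell surface proteins. PLAU, the urokinase protease that activates plasminogen, had 296 in romidepsin cells and 9337 in untreated cells, and 139 in combination cells and 8626 in tamoxifen cells. Both romidepsin arrays were far below both others, and the fall was 31.6-fold, the largest among genes above the floor on both arrays. Its receptor gene PLAUR fell 2.69-fold. FOSL1, an AP-1 transcription factor linked to invasive growth, fell 23.7-fold (211 against 5010.1). MYOF, a membrane repair protein abundant in pancreatic cancer, fell 18.7-fold (662 against 12349.5), and the stress-induced chromatin protein gene NUPR1 18.7-fold. The 1 probe set of the most specific type for MYOF was dim and gave a log2 fold of -0.56. The hyaluronan synthase gene HAS3 fell 13.1-fold, the transcription factor gene ETS2 11.5-fold, the growth factor gene FGF2 8.99-fold and the TGF-beta signal transducer gene SMAD3 8.88-fold. Some of the brightest transcripts of the untreated cells were among them: CD70, a ligand of the TNF family, had 2019 in romidepsin cells and 17106 in untreated cells, MALL, a membrane raft protein, had 1100.5 against 12264, and ADORA2B, an adenosine receptor, had 2100.1 against 14525. UBE2C, the ubiquitin-conjugating enzyme of mitotic exit, had 1778 against 11328, a 6.37-fold fall. The colony-stimulating factor gene CSF1 dropped below the floor, at least 6.76-fold lower, as did the phosphodiesterase gene PDE4B, at least 6.37-fold lower. With the median over its probe sets CSF1 gave a log2 fold of -0.27. MYC fell 3.12-fold, with 1668 in romidepsin cells and 5208 in untreated cells. The common reference genes ACTB and GAPDH had 45993 and 30973 in romidepsin cells and 49748 and 36159 in untreated cells.

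The HOX genes, which carry positional identity along the body axis, had the lowest median fold of the 85 gene lists examined. Of 20 measured members 14 fell and 1, HOXB13, rose, the median log2 fold was -1.5, and all 14 falls were repeated in the presence of tamoxifen; of the 15 above the floor on both arrays 1 rose and 12 fell; across settings 0 to 2 rose and 9 to 14 fell. HOXC6 had 867 in romidepsin cells and 6141 in untreated cells, HOXB6 had 582 against 3703, and HOXB7 had 2543 against 5909. They fell 7.08, 6.37 and 2.32-fold, and a second, dim probe set of HOXB6 gave a log2 fold of -0.08. The falls were contiguous on the chromosomes: an unbroken run of 8 measured neighbours fell on chromosome 12, from the long noncoding RNA gene HOTAIR through HOXC11, HOXC10, HOXC9, HOXC8, HOXC4 and HOXC5 to HOXC6, by 2.06 to 7.08-fold, and 8 of 8 were repeated. On chromosome 17 a run of 8 took in MIR10A, HOXB-AS3, HOXB5 to HOXB9 and LINC02086, by 2.02 to 6.37-fold, and 7 were repeated. These 2 were the longest of 15 runs of at least 4 measured neighbours called the same way, and the only runs of falls. HOXC4, HOXC5 and HOXC6 share transcribed sequence, and antisense transcripts of a cluster overlap its genes, so neighbours in a run are not independent measurements.

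**Figure D3:**
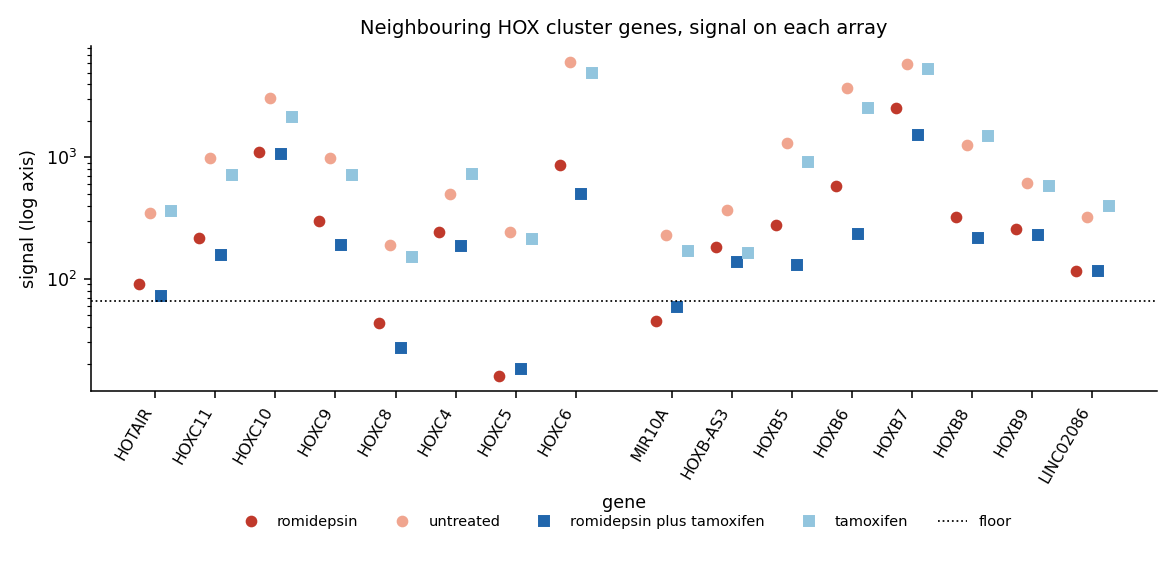
Signal on a log axis of the neighbouring genes of the HOXC run (left) and the HOXB run (right), for romidepsin, untreated, romidepsin plus tamoxifen and tamoxifen cells; the dotted line is the floor of 66.4. In each gene the romidepsin array lies below the untreated array, and the combination array below the tamoxifen array.

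Genes of nerve and secretory cells moved in the opposite direction. Of 37 measured neuronal and secretory granule genes 24 rose and 0 fell, 64.9% against 14.3% of all measured genes, a median log2 fold of 1.54, and 22 of the rises were repeated. NGFR, a neurotrophin receptor, had 2385 in romidepsin cells and 1821 in combination cells, against 10.1 in untreated and 4.97 in tamoxifen cells, values under the floor. It was at least 35.9-fold higher. DNER, a neuronal Notch ligand, had 2177 against 79.7 (27.3-fold), and the vesicle protein gene SYT11 1185 against 77.9 (15.2-fold). The granule protein gene SCG2 and the synaptic vesicle gene SYN1 were at the floor in untreated cells and reached 826 and 1204 in romidepsin cells, at least 12.5-fold and 18.1-fold higher. Of the 37 genes, 18 were above the floor on both arrays, and of these 11 rose, with a median of 1.17; across settings 10 to 29 rose, 0 to 3 fell and the median lay between 0.88 and 1.54. SYN1 is a known target of the repressor REST, which recruits deacetylases to the RE1 motif. Its window, chrX:47619808-47620107 (minus strand), holds the left part of that motif, TTCAGCACC, in capitals.
SYN1: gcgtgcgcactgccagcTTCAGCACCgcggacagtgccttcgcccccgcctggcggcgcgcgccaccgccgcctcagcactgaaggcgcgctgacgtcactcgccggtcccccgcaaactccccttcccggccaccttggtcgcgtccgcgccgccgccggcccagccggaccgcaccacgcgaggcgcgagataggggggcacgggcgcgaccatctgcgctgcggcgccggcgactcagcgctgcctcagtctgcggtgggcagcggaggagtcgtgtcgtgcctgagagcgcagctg
The match begins 233 bases before the start. Of the 27305 windows, 0.403% held these letters on either strand, and of the 27 windows of the neuronal list, 1 did. The share was 0.257% among genes that rose and 0.249% among genes not called.

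The channel, tubulin, cancer-testis and primary cilium lists rose in part. Of 35 potassium and voltage-gated channel genes 14 rose and 6 fell; of the 22 above the floor on both arrays 8 rose and 6 fell; across settings 3 to 19 rose and 3 to 7 fell. KCNMB4, a subunit of the large-conductance potassium channel, rose 14.3-fold, and KCNN4, the calcium-activated channel gene of epithelia and blood cells, fell 4.4-fold. Tubulin and microtubule genes held both abundant members that differed by under 2-fold and large rises: TUBB3 had 24908 in romidepsin cells and 24408 in untreated cells, whereas TUBB2B rose 4.15-fold, TUBB4A 8.68-fold and the microtubule-binding gene MAP1A 6.58-fold. Of 25 cancer-testis and germline genes 11 rose and 1 fell; of the 11 above the floor on both arrays 3 rose and 1 fell; across settings 4 to 14 rose. NLRP5, an oocyte gene, reached 2641 in romidepsin cells, against 37.8, under the floor, in untreated cells, and was at least 39.8-fold higher, and SSX1 was at least 15-fold higher. Of 42 primary cilium genes 12 rose and 2 fell; across settings 6 to 12 rose and 0 to 2 fell. IFT57 of the intraflagellar transport complex rose 3.7-fold and the Bardet-Biedl chaperonin genes BBS10 and BBS12 rose 3.12 and 2.95-fold.

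Axon guidance genes, which also steer epithelial and tumour cells, split by gene. Of 44 measured members 13 rose and 8 fell, and all 21 calls were repeated in the presence of tamoxifen; of the 35 above the floor on both arrays 8 rose and 8 fell; across settings 5 to 15 rose and 4 to 10 fell. The ephrin ligand EFNB2 had 810.3 in romidepsin cells and 89 in untreated cells, and the ephrin receptor EPHB3 1284 against 50.8, the last under the floor. NTN1, a netrin, rose 9.27-fold, EFNB2 9.1-fold and EPHB3 at least 19.3-fold. With the median over its probe sets NTN1 gave a log2 fold of 0.03. In the other direction, NRP1, a co-receptor of semaphorins and VEGF, fell 10.1-fold (184 against 1849.7; a log2 fold of -0.53 with the median over its probe sets), NTN4 9.7-fold and the semaphorin gene SEMA4B 6.79-fold.

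**Figure D4:**
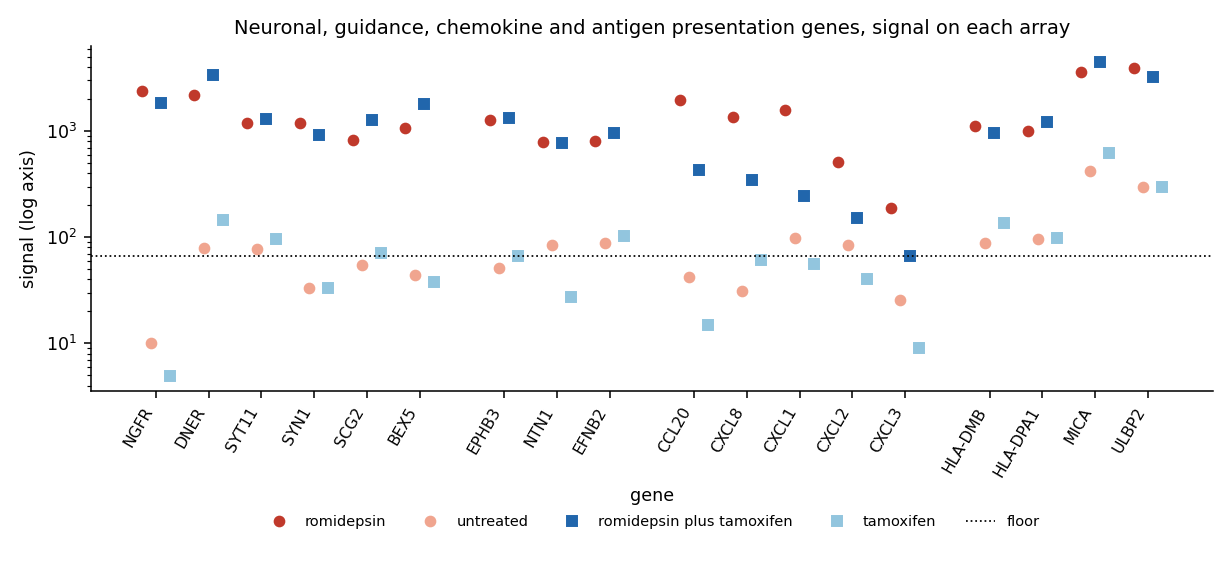
Signal on a log axis of neuronal, axon guidance, chemokine and antigen presentation genes for romidepsin, untreated, romidepsin plus tamoxifen and tamoxifen cells; the dotted line is the floor of 66.4. Both romidepsin-treated arrays exceed both others for every gene shown; the CXCL3 combination signal, 66.8, is just above the floor.

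Epithelial and mesenchymal genes were called in both directions. The junction gene CDH1, the E-cadherin of epithelial cells, had 1027 in romidepsin cells and 223 in untreated cells, a rise of 4.61-fold, and 874 in combination cells against 452 in tamoxifen cells, 1.93-fold. EPCAM was at least 5.96-fold and the tight junction gene TJP3 at least 7.83-fold higher, yet CLDN4, a claudin of tight junctions, fell 6.78-fold and the keratin gene KRT80 6.1-fold. Of 31 junction and keratin genes 7 rose and 5 fell; of the 23 above the floor on both arrays 4 rose and 4 fell; across settings 3 to 9 rose and 3 to 9 fell. On the mesenchymal side 4 of 17 rose and 6 fell; of the 14 above the floor on both arrays 1 rose and 6 fell; across settings 1 to 6 rose. FOXC2 fell 7.03-fold, the receptor kinase gene AXL 2.78-fold and the E-cadherin repressor gene ZEB1 2.18-fold, while SNAI2, a repressor of the same gene, rose 2.58-fold and SNAI1 was at least 5.98-fold higher, and the intermediate filament gene VIM had 30473 against 38695. Among duct and foregut genes the Notch target HES1 rose 3.41-fold and the carbonic anhydrase gene CA2 at least 9.94-fold, and SOX9 had 8131 in romidepsin cells and 6686 in untreated cells.

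Several matrix glycoprotein genes rose. Of 23 laminin and glycoprotein genes 9 rose and 0 fell, median 0.81; among the 16 above the floor on both arrays 5 rose and the median was 0.23; across settings 5 to 15 rose and the median lay between 0.30 and 0.90. FN1, fibronectin, reached 1094 in romidepsin cells, against 32, under the floor, in untreated cells, at least 16.5-fold higher. CCN2, a matricellular growth factor regulated by YAP and TGF-beta, became one of the brightest transcripts, 36474 against 4220.0 (8.64-fold), and thrombospondin, THBS1, rose 4.7-fold. The YAP and TEAD target genes were divided, with 5 of 30 higher and 7 lower; of the 26 above the floor on both arrays 2 rose and 7 fell; across settings 3 to 5 rose. ANKRD1 was at least 14.7-fold higher and CCN1 had 36231 in romidepsin cells and 25459 in untreated cells, while MYOF was the largest fall. The collagen gene COL12A1 rose 3.67-fold and COL13A1 fell 3.77-fold, and COL1A1 had 9773 against 9282. With the median over their probe sets COL12A1 gave a log2 fold of 0.43 and COL13A1 -0.65. Of 28 integrin and focal adhesion genes 6 fell and 2 rose; across settings 0 to 3 rose. The falls included the adaptor genes TNS3 and PXN (6.89 and 5.07-fold) and the laminin-binding integrin gene ITGA3 (3.11-fold). Of 9 hyaluronan genes 4 fell and 1 rose, and across settings 0 to 2 rose. Among the falls was the receptor gene CD44, with 4218 in romidepsin cells and 20786 in untreated cells (4.93-fold).

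Several EGFR family genes fell on their brightest probe sets. Of 11 EGFR family genes and ligands 5 fell and 2 rose, and all 7 were repeated. With the median over a gene's probe sets in place of the brightest, 1 fell and 0 rose. Across settings 1 to 6 fell and 0 to 2 rose. EGFR had 1893 in romidepsin cells and 4784 in untreated cells, a fall of 2.53-fold (a log2 fold of -0.89 with the median over its probe sets), ERBB2 fell 2.43-fold and the ligand gene EREG 2.94-fold, whereas the ligand gene TGFA was at least 13.3-fold higher. Of 27 genes of MAP kinase output and feedback 5 rose (18.5%) and 2 fell, and 2 of the rises were repeated; across settings 2 to 5 rose. The MAP kinase phosphatase gene DUSP6 rose 8.3-fold (7604 against 916) and EGR1, an immediate early transcription factor, 14.5-fold (3713 against 256), but SPRY2, a feedback inhibitor of receptor kinases, fell 2.81-fold. Of 13 AP-1 genes 2 rose and 2 fell, and across settings 1 to 3 rose. FOS was at least 9.09-fold higher, and FOSL1 was the second largest fall among genes above the floor on both arrays. JUN had 5359.8 in romidepsin cells and 5675 in untreated cells. WNT pathway genes rose for 12 of 49 (24.5%) and fell for 5, all repeated; of the 37 above the floor on both arrays 6 rose and 5 fell; across settings 4 to 19 rose and 2 to 5 fell. The ligand genes WNT4 and WNT5A were at least 9.51-fold and 5.15-fold higher, WNT5B fell 5.03-fold, and the pathway antagonist DACT2 fell 14.6-fold. With the median over its probe sets WNT4 gave a log2 fold of 0.25. In the TGF-beta list 8 of 48 rose (16.7%) and 6 fell; across settings 5 to 11 rose. ID2 rose 4.18-fold and the activin subunit gene INHBB fell 4.35-fold, and TGFB1 had 1025 against 734. In the insulin and IGF list 9 of 35 rose and 6 fell; of the 30 above the floor on both arrays 6 rose and 5 fell; across settings 5 to 9 rose. DEPTOR, an inhibitor of the kinase mTOR, rose 7.75-fold and IGFBP4, a carrier that restrains IGF, fell 3.11-fold.

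Among inflammatory genes the largest rises were those of chemokines that attract neutrophils and lymphocytes. Of 12 chemokine genes 5 rose and 2 fell; of the 5 above the floor on both arrays 2 rose and 2 fell; across settings 3 to 12 rose and 0 to 5 fell. CXCL8 had 1351 in romidepsin cells and 30.8, under the floor, in untreated cells, and 348 in combination cells and 61.3, again under the floor, in tamoxifen cells. CXCL1 had 1592 and 98 in romidepsin and untreated cells, against 246 and 55.6 in combination and tamoxifen cells. The signal of each was thus high with romidepsin in both pairs, and higher without tamoxifen than with it. CCL20, which attracts CCR6-bearing lymphocytes, was at least 29.7-fold higher, CXCL8 at least 20.4-fold and CXCL1 16.2-fold. CXCL8, CXCL1, CXCL3 and CXCL2 are neighbours among the measured genes of chromosome 4 and formed a run of 4 rises, of which 3 were repeated. Genes that were not measured can lie between them. Their inducer NF-kappaB is regulated mostly at the protein level, and its part in these rises was not tested. NFKB1 fell 2.76-fold, and RELA had 3195 in romidepsin cells and 3180.2 in untreated cells. The feedback genes TNFAIP3 and NFKBIZ rose 4.68-fold and 6.07-fold with the adhesion gene ICAM1 at 10.1-fold. Of 24 NF-kappaB subunits, inhibitors and regulators 4 rose (16.7%) and 3 fell (12.5%), against 14.3% and 9.27% of all measured genes. Across settings 1 to 4 of these 24 rose. In the windows of CXCL8, chr4:73740319-73740618, and CXCL1, chr4:73869143-73869442, both on the plus strand, capitals mark the NF-kappaB motif GGAATTTCC, the AP-1 motif TGANTCA and TATAAA.
CXCL8: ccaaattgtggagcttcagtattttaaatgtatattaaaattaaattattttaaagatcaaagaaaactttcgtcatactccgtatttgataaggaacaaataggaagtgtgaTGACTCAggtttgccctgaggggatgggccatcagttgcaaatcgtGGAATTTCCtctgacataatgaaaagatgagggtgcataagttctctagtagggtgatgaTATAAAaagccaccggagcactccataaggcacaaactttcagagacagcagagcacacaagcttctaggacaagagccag
CXCL1: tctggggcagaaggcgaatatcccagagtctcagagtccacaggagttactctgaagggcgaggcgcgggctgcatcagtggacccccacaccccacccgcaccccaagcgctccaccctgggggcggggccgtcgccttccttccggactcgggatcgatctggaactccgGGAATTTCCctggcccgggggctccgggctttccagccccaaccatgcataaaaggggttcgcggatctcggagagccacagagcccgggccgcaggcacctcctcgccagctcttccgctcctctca
The NF-kappaB match begins 91 bases before the start in CXCL8 and 78 bases before it in CXCL1. An NF-kappaB match was present in 0.472% and an AP-1 match in 7.76% of all 27305 windows. The cytokine genes IL6 and IL1B stayed near the floor, IL6 at 69.7 in romidepsin cells and 86.9 in untreated cells, and the cytokine gene LIF fell 8.24-fold.

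Several antigen presentation genes rose. Of 34 measured members 15 rose and 3 fell, median 0.67, and 14 of the rises were repeated; of the 27 above the floor on both arrays 11 rose and 3 fell; across settings 9 to 16 rose. The stress ligands of natural killer cells ULBP2 and MICA had 3958 and 3578 in romidepsin cells and 299.6 and 420.1 in untreated cells, rises of 13.2 and 8.52-fold. The class II genes HLA-DMB and HLA-DPA1 rose 12.7-fold and 10.4-fold, and their transactivator CIITA was at the floor on both arrays. The class I gene HLA-B rose 2.53-fold, and the light chain B2M, near the top of the range, had 31679 in romidepsin cells and 30849 in untreated cells. HLA genes resemble each other, and some of their probe sets match several. Interferon-stimulated genes were called about as often as all measured genes, with 6 of 41 higher (14.6%) and 5 lower (12.2%); of the 31 above the floor on both arrays 5 rose and 3 fell; across settings 2 to 9 fell. IRF7 rose 4.85-fold, IFI6 4.33-fold and ISG15 2.16-fold, IFITM3 fell 2.4-fold, and IFIT1 had 549.8 against 446. The ecto-nucleotidase gene NT5E, whose product makes immunosuppressive adenosine, fell 2.3-fold, and the checkpoint ligand gene CD274 had 129 in romidepsin cells and 31.5, under the floor, in untreated cells, short of 2-fold from the floor.

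Several survival genes fell, and pro-apoptotic genes were called in both directions. Of 14 anti-apoptotic BCL2 and IAP genes 5 fell and 0 rose, median -0.65; across settings 3 to 7 fell and the median lay between -0.90 and -0.21. BCL2L1, which encodes BCL-XL, had 1259 in romidepsin cells and 3435 in untreated cells, a fall of 2.73-fold, BCL2A1 fell 7.87-fold and CFLAR, the inhibitor of caspase 8 activation, 3.71-fold. Without probe sets that can match several transcripts, CFLAR gave a log2 fold of -0.21. MCL1 had 7489.8 against 6953. Among 13 pro-apoptotic members 3 rose and 1 fell, and 2 of the rises were repeated in the presence of tamoxifen. Of the 10 above the floor on both arrays 1 rose and 1 fell, and across settings 1 to 2 fell. BIK was at least 13-fold, BMF at least 3.1-fold and BCL2L11, which encodes BIM, 2.08-fold higher, and BID fell 3.05-fold. With the median over its probe sets BCL2L11 gave a log2 fold of 0.30, and with the probe set chosen on the 2 arrays 0.54. Growth arrest and stress sensor genes rose for 9 of 23 and fell for 0; of the 19 above the floor on both arrays 5 rose and 0 fell; across settings 4 to 9 rose. TXNIP, an inhibitor of thioredoxin and of glucose uptake, had 2065 in romidepsin cells and 252 in untreated cells (8.19-fold), and its relative ARRDC4 was at least 7.68-fold higher. GADD45A had 4901 against 6224.

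Many cholesterol synthesis genes and some fatty acid genes rose. Of 27 cholesterol synthesis and uptake genes 13 rose and 0 fell, median 0.95; across settings 7 to 14 rose. HMGCS1, the enzyme ahead of the statin target, had 4277 in romidepsin cells and 717 in untreated cells, and 8822 in combination cells and 3931 in tamoxifen cells. The tamoxifen array was close to the romidepsin array, and of the 13 rises 6 reached 2-fold again in the second pair. INSIG1, the sterol sensor partner, had 20005 against 3490.2 (5.73-fold), HMGCS1 rose 5.97-fold, the sterol exporter gene ABCG1 6.6-fold and TM7SF2 of the late pathway 5.47-fold. Without probe sets that can match several transcripts, ABCG1 gave a log2 fold of 0.16. SREBF2, the transcription factor of the pathway, had 717 in romidepsin cells and 753 in untreated cells. Of 38 fatty acid genes 13 rose and 4 fell; of the 32 above the floor on both arrays 10 rose and 4 fell; across settings 2 to 5 fell. FABP4, a fatty acid carrier of fat cells, had 1209.8 in romidepsin cells, against 2.97, under the floor, in untreated cells, the lipase gene LIPG rose 12.1-fold, and SCD, the main desaturase, had 22568 against 26061.

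Some genes of the lysosome and of autophagy rose as well. Of 51 lysosomal genes 14 rose and 0 fell, median 0.46, and 12 rises were repeated; across settings the median lay between 0.27 and 0.50. The sialidase gene NEU1 was at least 13.7-fold higher, the protease gene CTSH rose 4.41-fold and the proton pump gene ATP6V1A 3.25-fold. Of 41 autophagy genes 10 rose and 0 fell, median 0.45; across settings 6 to 10 rose and the median lay between 0.26 and 0.61. MAP1LC3B, a marker protein of autophagosomes, had 8349.9 in romidepsin cells and 3639.6 in untreated cells (2.29-fold), and its relative GABARAPL1 rose 4.44-fold and the lipid transfer protein ATG2A 4.66-fold. TFEB, the transcription factor of both systems, had 459.9 against 357. Cytochrome P450 genes rose for 9 of 23 and fell for 0; of the 10 above the floor on both arrays 3 rose and 0 fell; across settings 4 to 12 rose and 0 to 2 fell. CYP4F2 had 1787 in romidepsin cells and 5.86, under the floor, in untreated cells, at least 26.9-fold higher. Among ABC transporters 7 of 26 rose and 3 fell; of the 22 above the floor on both arrays 6 rose and 3 fell; across settings 3 to 8 rose and 0 to 4 fell. The drug efflux pump ABCB1 was at least 5.17-fold higher (343 against 25.2), ABCC3 fell 4.0-fold and ABCG2 had 751 in romidepsin cells and 963 in untreated cells.

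Few genes of the cytosolic ribosome, oxidative phosphorylation and the proteasome were called. Of 42 cytosolic ribosomal protein genes 0 rose and 0 fell, with log2 folds between -0.34 and 0.15. Of 66 oxidative phosphorylation genes 1 fell, NDUFS3 by 2.04-fold, and 0 rose. Of 33 proteasome genes 2 fell and 0 rose. Across settings 0 to 2 oxidative phosphorylation genes and 1 to 5 proteasome genes fell. Falls beyond 2-fold were more frequent than in those lists among 52 spliceosome genes (9 fell and 0 rose, median -0.60), 50 nuclear pore and transport genes (10 and 0, median -0.46), 74 mitochondrial ribosomal genes (9 and 0, median -0.38) and 42 ribosome biogenesis and MYC network genes (10 fell and 3 rose, median -0.50). U2AF2, which recognises the splice site, fell 3.16-fold (3589 against 11327). RANBP1 of the RAN cycle of nuclear transport fell 3.03-fold, although the median over its probe sets gave a log2 fold of -0.02. MRTO4, a ribosome assembly factor, fell 4.0-fold. The shares that fell were 17.3% for the spliceosome, 20% for the nuclear pore, 12.2% for mitochondrial ribosomes and 23.8% for ribosome biogenesis. All measured members of these lists were above the floor on both arrays, where 10.4% of genes fell, against 9.27% of all measured genes. The mitochondrial ribosomal share was thus close to that of all genes above the floor on both arrays. Across settings 5 to 14 spliceosome genes and 4 to 15 mitochondrial ribosomal genes fell. MXD1, an antagonist of MYC, rose 4.27-fold. In the stress response to amino acid shortage, ATF5 fell 5.67-fold and the pseudokinase gene TRIB3 2.55-fold, while the central factor ATF4 had 8051 in romidepsin cells and 11957 in untreated cells. Of 37 heat shock genes 6 fell and 2 rose, and HSPB1 fell 2.84-fold and HSPH1 2.51-fold. Across settings 2 to 7 heat shock genes fell and 1 to 2 rose.

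**Figure D5:**
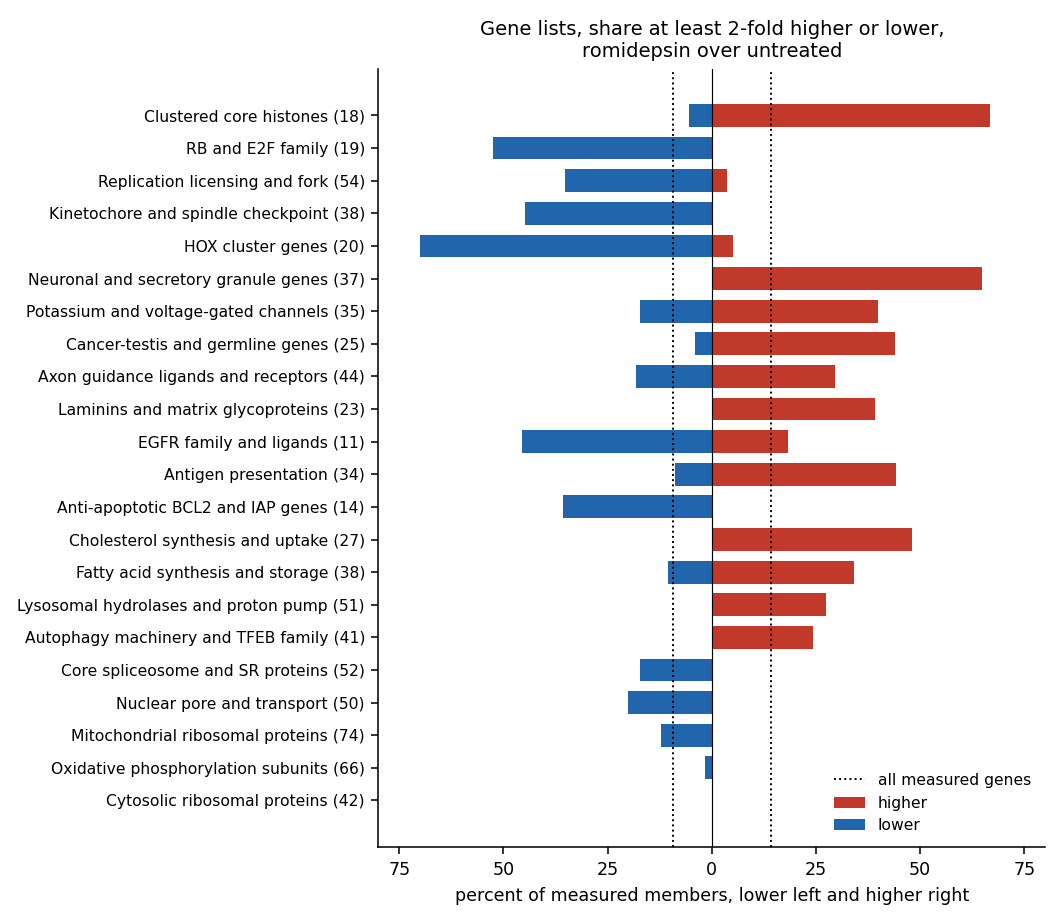
Percent of the measured members of 22 gene lists that were at least 2-fold lower (left, blue) or higher (right, red) in romidepsin than in untreated cells; the number of measured members is in parentheses. Dotted lines give the shares over all measured genes, 9.27% lower and 14.3% higher.

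Along the chromosomes, rises were most frequent on chromosome 6 (20.9% of 740 measured genes), the X chromosome (20.8% of 451) and chromosome 4 (19.2% of 480), and least on chromosome 20 (9.64% of 394), while falls ranged between 4.76% on chromosome 13 and 11.3% on chromosome 12. Most of the core histone genes and the HLA genes lie on chromosome 6. Besides the HOX clusters, 6 measured neighbours on chromosome 6 from ENPP4 and ENPP5 to PLA2G7 rose, of which 5 were repeated. Runs of 5 rises lay on chromosome 4 with HERC5 and NAP1L5, chromosome 5 from HDAC3 to PCDH1 and chromosome 12 from GPRC5D-AS1 to FAM234B. Of these, 5, 4 and 2 genes were repeated in that order. On the X chromosome BEX4, TCEAL8, BEX2 and TCEAL7, genes of a family expressed in brain, rose by 2.62 to 6.46-fold, and on chromosome 21 the collagen genes COL6A1 and COL6A2 lay in a run of 4.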

How the data were processed

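RNA of Panc1 cells was hybridised to 1 array per condition, made from 100 ng of total RNA per the labels' protocols. The deposited table holds linear probe-set intensities, which the authors computed with MAS5 per the submitters' processing notes (version not stated there). Each array is scaled separately in MAS5: the mean after trimming 2% at each end was 500.1 on all 4 arrays. Without scanner files, background correction and scan batch could not be varied.

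Symbols came from the platform annotation, matched by Entrez ID to RefSeq (41037 of 41091 probe sets, 0 symbols changed); 1801 probe sets with several genes and 11721 with none were not named. A gene's values are those of its brightest probe set, by mean log2 signal over 4 arrays after the floor of 66.4. Folds and calls (at least 2-fold) were computed on these log2 values; the pair alone allows no test. An additive limma fit (lmFit and eBayes, 14414 genes above the floor on any array) was added after the data were seen. The members, the 85 gene lists (3037 genes, 240 without a probe set of their own) and the settings were chosen with earlier results of these data known.

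Genes named were the 20 largest rises and falls above the floor and the 10 largest at it, all repeated in the second pair with probe sets of 1 direction, the 10 largest among the top 5% of signal, the first 4 and up to 5 largest called members of each list, runs of neighbours, genes called oppositely, a short set always reported and those at the floor's edge. For B2M, COL1A1, EP300, MCL1, RELA, SCD and SREBF2, given as values only, measured probe sets did not all move the same way. Columns of other samples numbered 0. The steps were tested on simulated data. Python 3.11.15, numpy 2.4.6, pandas 2.3.3 and matplotlib 3.10.9, R 4.3.3 and limma 3.58.1 were used. Precision is limited by having 1 array per group.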

Additional observations from a re-analysis of the deposited data

Results flagged for a closer look

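Of 3216 called genes, 4 were also called in the second pair but in the opposite direction. ANHX, a homeobox gene, was higher in romidepsin than in untreated cells (log2 fold 1.23; signals 248 and 106) and lower in combination than in tamoxifen cells (log2 fold -1.98; 20.2 and 262). The antisense RNA gene ASMTL-AS1 gave 1.16 (148 and 59.3) and -2.14 (27.4 and 292). AVPR1B, a vasopressin receptor gene, gave 1.29 (162 and 27.04) and -1.18 (43.6 and 149.9). CDH24, a cadherin gene, gave -1.44 (51.7 and 179.8) and 1.21 (246 and 106). All 8 log2 folds are smaller than 2.2 in size, and in each gene at least 1 of the 4 signals lies under the floor of 66.4. With 1 array per condition the difference between the pairs was not tested.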

How the results depend on the processing

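No paired analysis was possible because the labels give no replicate numbers that pair the arrays and each group holds 1 array; the additive fit below joins the 2 pairs instead. With the floor at the 25th percentile of signals, 3018 genes rose and 1901 fell and 62.8% of calls were repeated in the second pair; at the 75th percentile 800 rose, 832 fell and 79.3% were repeated, since the floor sets how many dim genes can be called. Rises made up 60.7% of calls as reported, 49.0% with the floor at the 75th percentile, 47.4% with arrays centred on their medians, 54.6% with quantile normalization, 58.8% with scaling to the spike-in controls and 62.8% without probe sets that can match several transcripts. An additive limma fit over the 4 arrays, added after the data were seen, called 3392 genes higher and 2669 lower at an adjusted p under 0.05, so that rises made up 56.0% of its calls; it tests both pairs together and not the first pair alone. Apart from these values, the counts over all genes were within 1.5 times, and the shares within the counting interval, of the reported ones. Counts per gene list moved more: of 37 lists with at least 5 rises, 31 had a count over 1.5 times away in some setting, and of 32 lists with at least 5 falls, 23 did. Of the 213 called genes named in the text, 209 were still called after median centring and 209 after quantile normalization. The number was 178 of 207 measured with the median over a gene's probe sets. It was 135 of 148 without probe sets that can match several transcripts and 167 of 197 with the highest floor. Among those measured, 0 changed direction in any setting. These genes were picked for their calls, many for large folds, so this absence of reversals is a weak check. Median centring ended the calls of BCL2L11, HDAC3, HDAC11 and ISG15, and quantile normalization those of BCL2L11, HDAC11, NDUFS3 and PLA2G7. The median over probe sets ended, among others, those of EGFR, EREG, TGFA, CDKN2D, CCND3, KAT6B, KAT8, MTA1, MTA3, NSD2, ZMYND8, SMARCA2, H2AX, NRP1, NTN1, NT5E, SESN3, ZEB1, PLAUR, WNT4, WNT5B and the class II genes HDAC5 and HDAC7. Keeping only probe sets of the most specific type ended those of ABCG1, CFLAR, HOXB-AS3, HOXB6, HSPH1, KAT8, KIF5C, MTA3, MYOF, PLAUR, U2AF2, WNT4 and ZMYND8. The median log2 fold kept 1 sign in all settings for 61 of 85 gene lists and changed it for 24, among them the WNT, TGF-beta, AP-1, interferon and epithelial junction lists, for which counts but no medians were given. The floor at the 75th percentile ended 30 calls, among them those of CSF1, E2F1, E2F8, EFNB2, FGF2, FOS, HOXB9 and HOXC4. The cause was not tested. Signals near the floor have no order, which limits what can be said of falls among dim genes.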

Other observations

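In 4 genes 1 probe set was called higher and another lower in both pairs of arrays. OBSL1, a cytoskeletal adaptor gene, was at least 9.10-fold higher by one probe set and 4.12-fold lower by the other in romidepsin than in untreated cells. ZMYM6 gave 2.89-fold higher and 4.85-fold lower, RASEF, a RAB-like GTPase gene, 5.54-fold higher and 2.32-fold lower, and SQSTM1, an autophagy receptor gene, 2.25-fold higher and 2.03-fold lower. The transcripts that each probe set reads were not analysed here.

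Probe sets without a gene name in the annotation were called less often in these arrays: of 3297 measured, 303 were higher (9.19%) and 139 lower (4.22%) in romidepsin than in untreated cells, against 14.3% and 9.27% of measured genes. The 2 shares are counted over probe sets and over genes, and the difference was not tested.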
